A study of Homo sapiens with 38 samples.

Results

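HT-1080 is a human fibrosarcoma line, and this comparison sets its response to 2-deoxyglucose (2DG) against its response to glucose starvation (GS). It uses 10 of the 38 arrays of the series. The 3 arrays 2DG 1, 2DG 2 and 2DG 3 came from HT-1080 cells with mtDNA, exposed to 2DG for 18 h with no inhibitor. The 2 arrays GS 1 and GS 2 came from the same line with mtDNA, kept under GS for 18 h with no inhibitor. The sample descriptions name a control array for each treated array: control 2 for 2DG 1, control 4 for 2DG 2, control 5 for 2DG 3, control 1 for GS 1 and control 6 for GS 2. These 5 controls were HT-1080 cells with mtDNA and no stress. Their culture time and the dose of 2DG are not given in the sources used here. A response is the log2 difference between a treated array and its own control, and a gene was taken as different where its 3 responses to 2DG lay all above, or all below, its 2 responses to GS. Of 11456 genes tested, 2263 had all 2DG responses above the GS responses and 1572 had all of them below. The series as a whole profiled HT-1080 and a second line, HT-29, with and without mtDNA, under glucose starvation, 2DG or tunicamycin, with or without several inhibitors. Nothing in the labels says that arrays of a group came from separate experiments, so the p-values measure the spread between cultures only. In the fit of all 38 arrays used below, that spread also includes the one between the HT-29 GS arrays, at 18, 18 and 14 h.

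Both treatments take glucose from the cell in different ways. Starvation leaves it without the sugar, while 2DG is taken up and phosphorylated like glucose but goes little further along glycolysis, and it also enters N-linked glycan synthesis in place of mannose. Both are known to raise chaperones of the endoplasmic reticulum (ER), the glucose-regulated proteins, through the unfolded protein response, and the transcription factor ATF4, which raises genes of amino acid supply. MondoA is a transcription factor that responds to phosphorylated hexoses and binds paired E-boxes in promoters, and HSF1 is the factor that raises cytosolic chaperones when proteins misfold.

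The 10 arrays were alike in brightness and RNA quality. The deposited trimmed mean signal ran from 123 to 136, and the ratio of 3' to 5' probe sets ran from 1.18 to 1.42 for ACTB and from 0.919 to 1.03 for GAPDH. Of 11 mesenchymal markers measured, 9 had a mean above the level used as a filter, and of 10 colon epithelial markers 2 did. Control 6, the control of GS 2, stood above the other HT-1080 controls for 3 of 119 named genes: ASNS had a signal of 1240 there against 432 to 637 in the other 5, SLC3A2 396 against 238 to 288, and IER3 2750 against 2040 to 2280. The controls of 2DG 3 and GS 2 carry the letters Pt in their deposited names and those of 2DG 1, 2DG 2 and GS 1 do not. What the letters mean is not given, so differences are also given within each of these sets: 2DG 3 against GS 2, and the mean of 2DG 1 and 2DG 2 against GS 1.

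Part of the response was shared by both stresses. By limma with Benjamini-Hochberg adjusted p under 0.05, 561 genes rose (4.9% of those tested) and 386 fell (3.37%) with 2DG, while 499 rose (4.36%) and 584 fell (5.1%) with GS. Of these, 255 rose with both and 175 fell with both, together 45.4% of the genes called with 2DG and 39.7% of those called with GS. None rose with 2DG and fell with GS, and 1 did the opposite. Leaving out an array left fewer calls: of the 947 with 2DG, 98 without 2DG 1, 84 without 2DG 2 and 211 without 2DG 3, and of the 1083 with GS, 20 without GS 1, 45 without GS 2 and 638 to 716 without a 2DG array. Across genes, responses correlated at 0.42 to 0.48 between a 2DG and a GS array, at 0.47 to 0.57 between 2DG arrays and at 0.59 between the GS arrays, as a description over 11456 genes.

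The difference between the stresses was tested directly as the contrast of the 2 responses in a limma fit of all 38 arrays, each treated array blocked with its own control. Only TXNIP, higher with 2DG (0.00873% of genes), and SNAPC1, higher with GS (0.00873%), had an adjusted p under 0.05, and 874 genes (7.63%) had an unadjusted p under 0.05. A fit of the 10 arrays alone, with 3 residual degrees of freedom, called 73 genes higher with 2DG (0.637%) and 29 higher with GS (0.253%). All 102 were among the genes with non-overlapping responses, but the fit and the rule use the same responses, so this adds no independent support. With a term for Pt in the control name, in a fit of the responses from these 10 arrays only, 78 and 52 genes were called. Below, an adjusted p is from the fit of all arrays unless the 10 arrays are named.

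Non-overlapping responses were common: 19.8% of all genes tested were higher with 2DG and 13.7% higher with GS by this rule, 33.5% in all. Fewer arrays overlap less often: without GS 1 the counts were 3755 and 3018, and without GS 2 they were 4028 and 2960. Counts over a list with an array left out, given below, are to be read beside such counts and not beside 19.8% and 13.7%. The gap between the nearest arrays of both stresses was small for most, with a median of 0.17 (log2) for genes higher with 2DG and 0.15 for those higher with GS. It passed 0.5 for 277 and 150 genes and 1 for 33 and 24. Just inside the rule lay PSD3, SMAD4 and LARS1 with gaps of 1.8e-05, 3.6e-05 and 7.4e-05, and just outside it GALNT14, FER and WNT6, with gaps of -4.8e-05, -5.5e-05 and -5.8e-05, that is, a slight overlap. Among the 2263 genes higher with 2DG, 695 had both GS responses below 0 with 2DG on both sides of 0, 592 were down with both stresses, 441 were up with 2DG and down with GS, and 258 were up with both. Among the 1572 higher with GS, 506 had both GS responses above 0 with 2DG on both sides, 22.3% were up with both, 302 were down with 2DG and up with GS, and 194 were down with both.

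**Figure D1:**
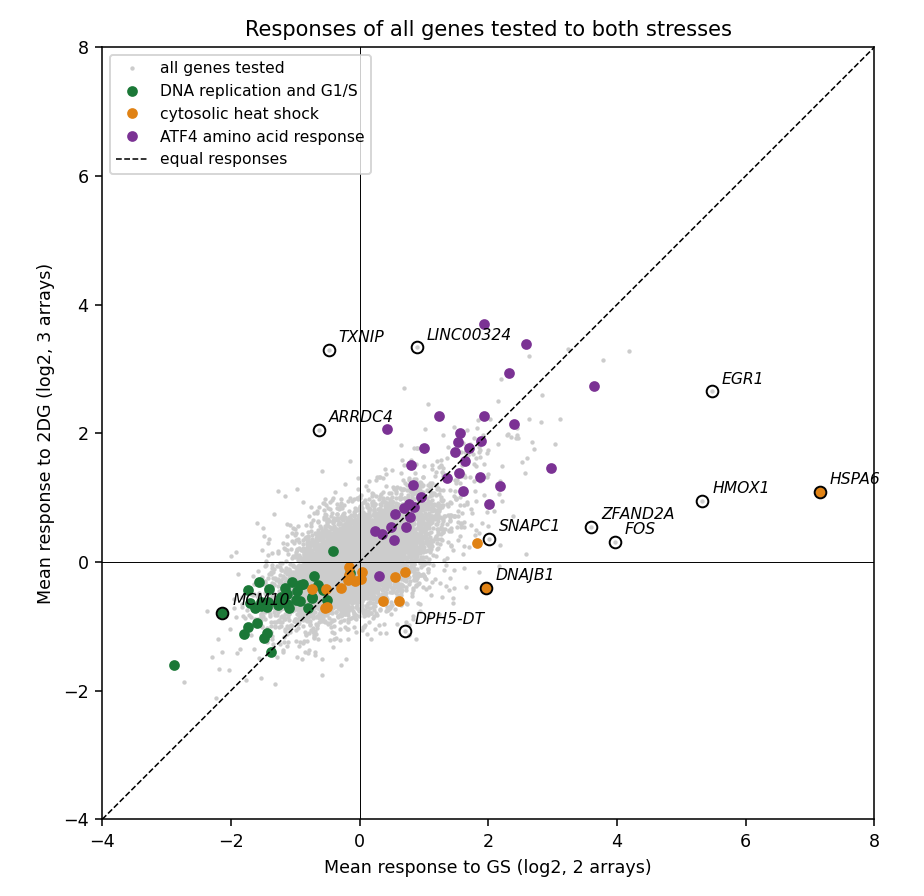
Mean log2 response to GS (x axis, 2 arrays) against mean log2 response to 2DG (y axis, 3 arrays) for the 11456 genes tested, with 3 gene lists in colour and genes described in the text ringed. Most genes lie along the dashed line of equal responses, TXNIP lies at 3.30 on the 2DG axis and -0.47 on the GS axis, HSPA6 lies at 7.16 on the GS axis and 1.09 on the 2DG axis, and most DNA replication genes lie further below 0 on the GS axis than on the 2DG axis.

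TXNIP, an arrestin-family protein that binds thioredoxin and restrains glucose uptake, was the gene that set 2DG apart most clearly. Its scaled signal was 624, 654 and 580 in the 2DG arrays and 47.6 and 39.9 in the GS arrays. The controls of the 2DG arrays had 51.6, 54.1 and 69, and those of the GS arrays 51.2 and 76.6. Only the 2DG arrays were high, GS 1 lay close to its own control, and GS 2 lay well below its own. The response was 3.30 ± 0.28 (SD, n = 3) to 2DG, where TXNIP rose (adjusted p 7.97e-05 in limma), and -0.47 ± 0.53 (SD, n = 2) to GS (adjusted p 0.339). The difference was 3.77 (SE 0.38), or 13.7-fold, with an adjusted p of 0.00519 in limma. All 3 of its probe sets gave a difference in the same direction, from 3.12 to 3.95. Within the Pt set the difference was 3.82 and in the other set 3.56. The call was lost in the smaller fits without 2DG 1 (adjusted p 0.075), without 2DG 2 (0.0567) or without GS 2 (0.0671), where the difference was 3.69, 3.69 and 3.39.

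ARRDC4, a close relative of TXNIP, followed the same order at a low level. Its signal was 72.3, 66.1 and 45.2 with 2DG and 1.16 and 6.79 with GS, against 6.5, 10.5 and 14.7 in the controls of 2DG and 13 and 5.21 in those of GS. The 2DG arrays lay above every control and every GS array. Only 2DG 1 and 2DG 2 were above 45.5, the level used as a filter. ARRDC4 rose with 2DG, by 2.05 ± 0.68 (SD, n = 3; adjusted p 0.00875 in limma), while the difference between stresses was 2.68 (SE 0.60) with an adjusted p of 0.465. The other genes of the MondoA list did not share this pattern. The median difference over the 11 measured was -0.25. Of these, 3 were higher with 2DG (TXNIP, ARRDC4 and ARRDC2, 27.3% against 19.8% of all genes). Another 3 were higher with GS (27.3% against 13.7%). Among the latter ARRDC3, another arrestin-family member, had responses of 1.11, 1.18 and 0.53 to 2DG and of 1.61 and 1.74 to GS, and rose with GS (adjusted p 0.0125 in limma). ARRDC2 differed by 0.32 (adjusted p 0.922), and by -0.01 where treated arrays were compared without their own controls.

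The promoters of TXNIP and ARRDC4 are shown because these are the 2 genes of the list that rose with 2DG by limma. Each is the 250 bases upstream of the start in RefSeq's annotation of GRCh38.p14, read 5' to 3' on the gene's strand, at chr1:145996580-145996829 (minus strand) and chr15:97960453-97960702 (plus strand). Capitals mark a paired E-box (CACGNG repeated after 5 bases, N being any base) in TXNIP and a single E-box (CACGTG) in ARRDC4. Both were searched on both strands, and the letters of a paired E-box can hold a single one.
TXNIP: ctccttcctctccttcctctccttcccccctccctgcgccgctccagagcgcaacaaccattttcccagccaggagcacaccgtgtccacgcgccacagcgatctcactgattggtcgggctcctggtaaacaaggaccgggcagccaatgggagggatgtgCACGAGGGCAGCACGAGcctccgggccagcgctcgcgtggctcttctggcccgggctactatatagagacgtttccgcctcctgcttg
ARRDC4: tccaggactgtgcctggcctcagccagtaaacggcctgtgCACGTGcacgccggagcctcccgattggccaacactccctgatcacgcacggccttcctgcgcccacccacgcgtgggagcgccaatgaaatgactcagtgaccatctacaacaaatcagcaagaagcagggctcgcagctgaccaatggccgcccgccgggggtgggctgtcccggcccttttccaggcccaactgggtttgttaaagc
The paired E-box was in 16 of 35116 RefSeq promoters of this length (0.0456%), and in 1 of the 10 MondoA-list genes matched, TXNIP, in 1 of its 2 promoters. The single E-box was in 6.34% of all promoters, and in at least 1 promoter of 5 of those 10 genes (50%) against 7.73% of all genes: ARRDC4, G6PC3, HK2, MLX and PFKFB3. Of these only ARRDC4 was higher with 2DG.

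**Figure D2:**
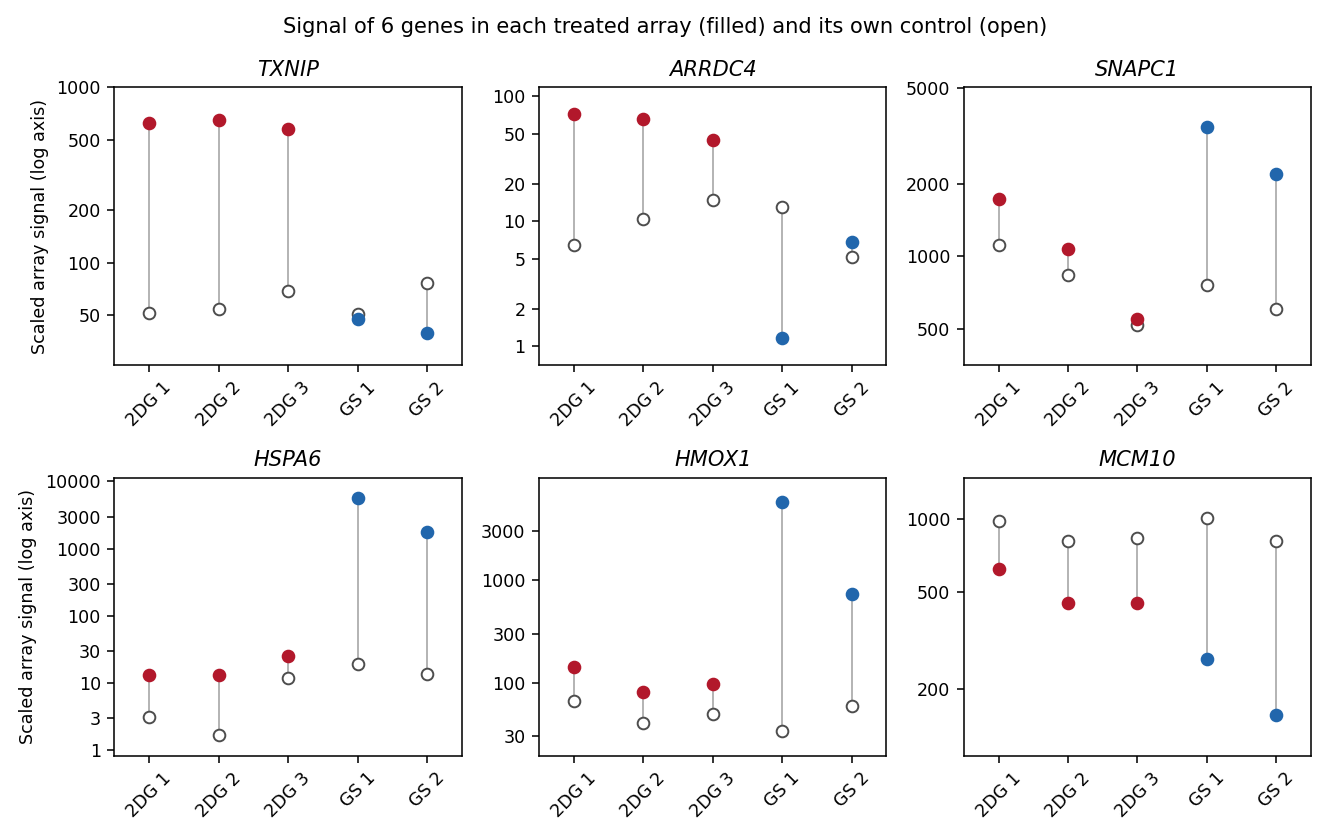
Scaled array signal (log axis) of 6 genes in the 5 treated arrays (filled, red for 2DG and blue for GS), each joined to its own control (open). TXNIP reached 580 to 654 with 2DG against 39.9 to 76.6 in the GS arrays and all controls shown, whereas HSPA6 reached 5650 and 1760 with GS against 25.4 or less elsewhere.

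SNAPC1, a subunit of the complex that starts transcription of small nuclear RNA genes, was the only gene called higher with GS. Its signal was 3450 and 2200 with GS, from 759 and 602 in the own controls. With 2DG it was 1730, 1070 and 549, from 1120, 837 and 518. Both GS arrays lay above all 2DG arrays, although the controls of the 2DG arrays were spread over a range that reached above those of GS. SNAPC1 rose with GS by 2.02 ± 0.22 (SD, n = 2; adjusted p 0.00062 in limma), and the response to 2DG was 0.35 ± 0.27 (SD, n = 3; adjusted p 0.125). The difference was -1.66 (SE 0.21), 3.16-fold, with an adjusted p of 0.033 in limma, -1.77 within the Pt set and -1.68 in the other. Without any 1 of the 5 treated arrays the adjusted p was 0.075 to 0.708, lowest without 2DG 1 (difference -1.80), then GS 2 (0.0977; -1.82), 2DG 3 (0.293; -1.53), 2DG 2 (0.311; -1.66) and GS 1 (0.708; -1.50). The call was also lost with no replicate block (0.0895) and where treated arrays were compared without own controls (0.2), with a difference of -1.45 in both.

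DPH5-DT, a non-coding transcript read divergently from the DPH5 gene, was the 1 gene that fell with 2DG and rose with GS. Its signal was 64.2, 55 and 67.1 with 2DG and 219 and 249 with GS, while the 5 controls lay together at 131, 134, 147, 140 and 142. Every 2DG array was below, and both GS arrays above, all 5 controls. The response was -1.08 ± 0.12 (SD, n = 3; adjusted p 0.00371) to 2DG and 0.70 ± 0.11 (SD, n = 2; adjusted p 0.0466) to GS in limma. The difference of -1.78 (SE 0.26) had an adjusted p of 0.0668 with all arrays and 0.00985 with the 10 arrays. The other probe set of this transcript gave -1.03, also with no overlap.

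Some genes of the cytosolic heat shock list, 7 of 18 measured, were higher with GS without overlap. By far the most was HSPA6, an inducible HSP70 that is nearly silent without stress. Its signal was 13.1, 13.1 and 25.4 with 2DG, 1.67 to 19.5 in the 5 controls, and 5650 and 1760 with GS. All arrays but those of GS were below 45.5. HSPA6 rose with GS by 7.16 ± 0.92 (SD, n = 2; adjusted p 0.00284 in limma), and the difference of -6.08 (SE 1.21) had an adjusted p of 0.387 with all arrays and 6.2e-05 with the 10 arrays. Its other probe set gave -5.51. HSPA6 has a near-identical pseudogene, HSPA7, whose transcripts these probes may not tell apart.

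DNAJB1, the HSP40 partner of inducible HSP70, had 5070 and 991 with GS, 395, 473 and 452 with 2DG, and 548 to 605 in the controls. GS 1 was far above GS 2, and the 2DG arrays were all below their controls. The difference was -2.37 (SE 0.79; adjusted p 0.541 in limma, 0.034 with the 10 arrays). HSPH1, an HSP110 that recharges HSP70, had 5000 and 2030 with GS and 2020, 1770 and 1830 with 2DG, from controls of 2850 and 2120 and of 3130, 2830 and 2650. Here GS 2 was near its own control, and only GS 1 was above it. ZFAND2A, a proteasome-associated zinc-finger protein raised by heat and arsenite, had 3560 and 1330 with GS, 237, 291 and 232 with 2DG, and 144 to 191 in the controls. It rose with GS (3.60 ± 1.10, SD, n = 2; adjusted p 0.00756 in limma), and differed by -3.06 (SE 0.82; adjusted p 0.472, and 0.00595 with the 10 arrays).

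Of 18 heat shock genes measured, 7 were higher with GS (38.9% against 13.7% of all genes) and none with 2DG: HSPA6, DNAJB1, DNAJB4, HSPA1L, HSPH1, BAG3 and HSPD1. HSPD1, a mitochondrial chaperonin subunit held in this list, differed by only -0.19, and HSPA1L was dim, with a mean signal of 23.8. The 10-array fit called 3 of the 7, HSPA6, DNAJB1 and HSPH1. The median difference over the list was -0.21: HSP90AA1, HSPA4 and DNAJA1, abundant without stress, and HSF1 itself differed by -0.13 to 0.10 with overlap. In all 16 of 18 had a higher response in GS 1 than in GS 2. Without GS 2 the count higher with GS was 14, and without GS 1 it was 8, with 6 then higher with 2DG. Only HSPA6 rose with GS by the test, and STIP1 and HSPE1, a co-chaperone and a mitochondrial chaperonin subunit, fell with 2DG (adjusted p 0.0334 and 0.0311 in limma).

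The HSPA6 promoter is shown because this gene had the widest gap of all genes tested. It is the 250 bases upstream of the start at chr1:161524290-161524539 (plus strand, GRCh38.p14, RefSeq), with a match to a heat shock element in capitals (3 alternating units GAA and TTC, each 2 bases from the next, starting with either, both strands).
HSPA6: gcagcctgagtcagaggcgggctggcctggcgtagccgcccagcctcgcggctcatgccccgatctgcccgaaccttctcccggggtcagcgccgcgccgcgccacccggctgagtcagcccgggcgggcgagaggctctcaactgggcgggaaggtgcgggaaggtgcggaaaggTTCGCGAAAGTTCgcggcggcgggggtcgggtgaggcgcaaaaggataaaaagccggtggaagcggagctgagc
This word was in 0.441% of all promoters, and in at least 1 promoter of 5 of 16 heat shock genes matched (31.2%) against 0.557% of all genes. The 5 were HSPA6, HSPD1, CHORDC1, HSP90AA1 and HSP90AB1, of which 2 were higher with GS. Of the 11 without it, 5 were higher with GS.

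HMOX1, heme oxygenase and a target of both NRF2 and heat shock signalling, had the second widest gap among genes higher with GS. Its signal was 5700 and 724 with GS, 142, 81.5 and 97.4 with 2DG, and 33.6 to 66.9 in the 5 controls. Both GS arrays were above all 2DG arrays, and GS 1 was far above GS 2. HMOX1 rose with GS by 5.33 ± 2.62 (SD, n = 2; adjusted p 0.00351 in limma), and the difference was -4.38 (SE 0.99; adjusted p 0.465, and 0.0204 with the 10 arrays). It was -2.57 within the Pt set, which holds GS 2, and -6.21 in the other. Without GS 1 the difference was -2.53 and without GS 2 it was -6.23.

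The rest of the NRF2 list was mixed. Of 20 genes measured, 5 were higher with GS (25% against 13.7% of all genes) and 2 with 2DG (10% against 19.8%). Beside HMOX1, those higher with GS were OSGIN1, SQSTM1, SRXN1 and ABCC1. OSGIN1 had responses of 1.89 and 1.70 to GS and of 0.80, 0.52 and -0.06 to 2DG. The 2 higher with 2DG were the aldo-keto reductases AKR1C1 and AKR1C3, whose near-identical transcripts the probes may not tell apart, and which rose with 2DG (adjusted p 0.00579 and 0.00725 in limma) and had adjusted p of 0.32 and 0.457 with GS. SLC7A11, the cystine transporter, rose with both, and NQO1, a standard NRF2 target, had responses between -0.05 and 0.49 on the 5 arrays.

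SQSTM1, the autophagy receptor p62, rose with both stresses and more with GS. Its signal was 3500 and 2580 with GS from 965 and 746, and 2200, 2030 and 2230 with 2DG from 1320, 1070 and 965. The GS arrays were both above the 2DG arrays although their controls were not. Responses were 1.82 ± 0.05 (SD, n = 2) and 0.95 ± 0.24 (SD, n = 3), with adjusted p of 0.00368 and 0.0223 in limma. The difference of -0.86 (SE 0.35) had an adjusted p of 0.61, and 0.0266 with the 10 arrays. ATG12, a ubiquitin-like conjugation protein of autophagosome growth, rose with GS (1.10 ± 0.13, SD, n = 2; adjusted p 0.00284 in limma) and had 0.33 ± 0.19 (SD, n = 3; adjusted p 0.111) with 2DG. Of 34 autophagy and lysosome genes, 11 were higher with GS (32.4% against 13.7% of all genes) and 5 with 2DG (14.7% against 19.8%). The former held MAP1LC3B, GABARAPL1, WIPI1 and ATG7 among others, and the latter held VMP1, ATG9A, FLCN, MCOLN1 and WIPI2. Probe sets disagreed for ATG7, where another gave 0.75 with 2DG higher, and for FLCN, whose 2 dimmer ones gave -0.60 and -0.37, the last with GS higher. The count higher with 2DG was 8 without 2DG 1, 9 without GS 1 and 8 without GS 2.

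Among stress-activated early genes several had their highest response on GS 1. EGR1, a zinc-finger factor raised by growth factor and stress kinases, had a signal of 6130 and 520 with GS and 356, 245 and 188 with 2DG, from controls of 17.9 to 76.6. EGR1 rose with both (adjusted p 0.00249 with GS and 0.0103 with 2DG in limma), and the gap between the nearest arrays was 0.13. FOS had 1390 on GS 1 and 48.8 on GS 2, against 27.3, 16.3 and 8.04 with 2DG. NFKBIZ, a nuclear regulator of NF-kB target genes, had 1060 and 300 with GS, 86.5, 59 and 70.2 with 2DG and 54.9 to 98.6 in the controls. It rose with GS (2.58 ± 1.10, SD, n = 2; adjusted p 0.00398 in limma), and the difference was -2.46 (SE 0.50; adjusted p 0.387, and 0.0181 with the 10 arrays). Of 20 immediate-early factors, 6 were higher with GS (30% against 13.7% of all genes) and 4 with 2DG (20% against 19.8%): JUND, IER3, KLF2 and KLF4. KLF4 was very dim, with a mean signal of 5.05 over the 10 arrays, and its dimmer probe set gave -0.10 with overlap. None of the 20 was called by either fit, and the list's median response was 0.25 with 2DG and 0.24 with GS. In 17 of the 20 the response was higher in GS 1 than in GS 2.

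Most genes of DNA replication had lower responses to GS than to 2DG, and their non-overlapping share was the largest of the 25 lists. Of 39 measured, 29 were higher with 2DG (74.4% against 19.8% of all genes) and none with GS. The list's median response was -0.60 with 2DG and -1.21 with GS, and on the single arrays -0.55, -0.64 and -0.57 with 2DG and -1.13 and -1.31 with GS. By limma, 8 of the 39 fell with 2DG and 25 fell with GS, where 3.37% and 5.1% of all genes did. The median difference was 0.61, against 0.04 over all genes, and 36 of 39 differences were above 0. None passed the test of the difference in the fit of all arrays, and 7 did with the 10 arrays: PCNA, MCM4, MCM10, RFC3, UHRF1, UNG and FEN1. The median difference was 0.72 within the Pt set and 0.48 in the other, and 29 to 34 genes were higher with 2DG when any 1 array was left out, with 1 gene then higher with GS without 2DG 2, 2DG 3 or GS 1.

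MCM10, which helps start the replicative helicase, had a signal of 265 and 155 with GS and 621, 451 and 450 with 2DG, from controls of 813 to 1010. Both GS arrays were below all 2DG arrays, which were below all controls. MCM10 fell with GS by 2.13 ± 0.30 (SD, n = 2; adjusted p 0.00555 in limma), and the response to 2DG was -0.79 ± 0.12 (SD, n = 3; adjusted p 0.103). The difference was 1.34 (SE 0.45; adjusted p 0.541, and 0.00874 with the 10 arrays). MCM2 to MCM7, the subunits of the helicase ring, differed by 0.40 to 0.99, all with no overlap. Of the GINS subunits, GINS1, GINS2 and GINS4 differed by 0.65 to 0.80 and GINS3 by 0.13. A second probe set of GINS3, about as bright, gave -0.18 with overlap, and very dim ones of GINS2 and GINS4 gave -0.11 and -1.06. CDC6, which loads the helicase, differed by 0.59 with overlap, and by 0.76 without overlap in its other probe set.

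At the fork, PCNA, the sliding clamp, had 779 and 945 with GS and 1620, 1530 and 1620 with 2DG, from controls of 2340 to 2670. The 3 levels were apart: controls highest, 2DG between and GS lowest. PCNA fell with GS by 1.54 ± 0.20 (SD, n = 2; adjusted p 0.0179 in limma), and the difference was 0.91 (SE 0.42; adjusted p 0.654, and 0.0181 with the 10 arrays). FEN1, the nuclease that trims Okazaki fragments, had 873 and 1020 with GS and 2260, 2740 and 1850 with 2DG, from 2340 to 3320. The clamp loader genes RFC2, RFC3, RFC4 and RFC5 differed by 0.62 to 0.74, with no overlap, though 1 of 3 probe sets of RFC5 gave -0.12. The polymerases were not alike: POLA2 differed by 0.66 with no overlap, POLA1 by 0.19 and PRIM1 by -0.09, while POLE2 of polymerase epsilon differed by 0.67.

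Nucleotide supply and the control of entry into S phase were mixed. TYMS, thymidylate synthase, differed by 0.85 and TK1, thymidine kinase, by 0.38, both with no overlap. The ribonucleotide reductase genes RRM1 and RRM2 differed by 0.30 and 0.33, RRM2 with overlap. The other, dimmer probe set of RRM2 gave 0.84 without overlap. E2F1, the factor that drives S-phase genes, had 38.5 and 32.7 with GS and 75.5, 91.3 and 59.9 with 2DG, from 82 to 138. It fell with GS (-1.73 ± 0.26, SD, n = 2; adjusted p 0.00864 in limma), and the difference was 1.30 (SE 0.40; adjusted p 0.536). Its second probe set gave 0.46 with overlap. E2F8, a repressor of the family, fell with both (adjusted p 0.0302 and 0.00628 in limma). CCNE1, CCNE2 and CDC25A, which act at the start of S phase, had overlapping responses that differed by -0.03 to 0.31. A dimmer probe set of CDC25A gave -0.63, higher with GS without overlap.

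**Figure D3:**
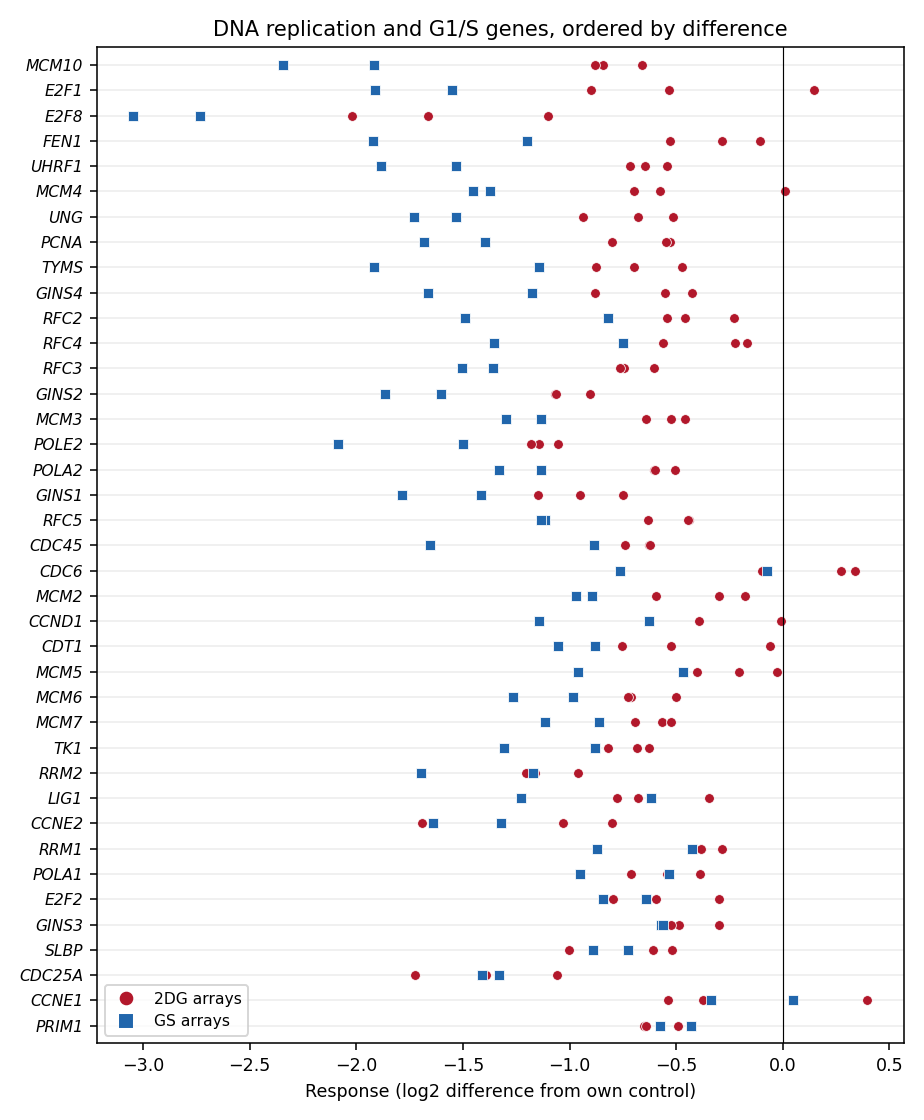
Log2 responses of the 39 measured DNA replication and G1/S genes (rows, ordered by difference) in the 3 2DG arrays (red circles) and the 2 GS arrays (blue squares). In 29 genes both squares lie left of all circles, and in PRIM1, CCNE1 and CDC25A at the foot they do not.

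The promoters of E2F1 and PCNA are shown because E2F words were common in this list. Both are the 250 bases upstream of the start in GRCh38.p14 (RefSeq), at chr20:33686386-33686635 and chr20:5126623-5126872, each on the minus strand. Capitals mark TTTCCCGC, TTTCGCGC, TTTGCCGC or TTTGGCGC on either strand. Matches of these words may overlap each other.
E2F1: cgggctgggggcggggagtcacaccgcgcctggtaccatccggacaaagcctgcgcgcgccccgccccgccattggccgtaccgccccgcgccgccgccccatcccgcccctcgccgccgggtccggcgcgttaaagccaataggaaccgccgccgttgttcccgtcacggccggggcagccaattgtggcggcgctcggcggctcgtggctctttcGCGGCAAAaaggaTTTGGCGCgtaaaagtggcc
PCNA: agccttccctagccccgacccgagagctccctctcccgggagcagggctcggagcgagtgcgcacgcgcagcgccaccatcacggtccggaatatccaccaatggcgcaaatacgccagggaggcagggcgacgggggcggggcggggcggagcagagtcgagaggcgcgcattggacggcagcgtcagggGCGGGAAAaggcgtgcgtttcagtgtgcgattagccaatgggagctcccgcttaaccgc
Such a word was in 2.79% of all promoters and in at least 1 promoter of 3.4% of all genes. It was in 16 of 33 replication genes matched (48.5%), and in 3 of 29 mitosis genes (10.3%). Among the 16 with the word 12 were higher with 2DG, and among the 17 without it 12 were.

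Many mitosis genes fell with both stresses. Of 35 measured, 24 fell with 2DG and 25 with GS by limma, 20 of them with both, with medians of -0.84 and -0.89. Over all genes 3.37% and 5.1% fell. Responses did not overlap for 6 genes higher with 2DG (17.1%) and 3 higher with GS (8.57%), near the 19.8% and 13.7% of all genes. MKI67, the proliferation antigen Ki-67, had the largest difference of the list: its signal was 269 and 213 with GS and 454, 426 and 608 with 2DG, from 590 to 715. It fell with GS (-1.42 ± 0.06, SD, n = 2; adjusted p 0.00742 in limma), and the difference was 1.05 (SE 0.32; adjusted p 0.516, and 0.0168 with the 10 arrays). Its 4 probe sets disagreed: a second gave 0.68, and the 2 dimmest gave -0.08 and -0.13, the last with GS higher without overlap. HMMR, a spindle-associated protein, went the other way. It fell with both, by 1.50 ± 0.23 (SD, n = 3; adjusted p 0.00149) with 2DG and by 0.89 ± 0.05 (SD, n = 2; adjusted p 0.0293) with GS in limma. The count higher with 2DG was 15 without 2DG 2 and 17 without GS 2, and that higher with GS was 6 without 2DG 3 and 8 without GS 1.

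Some genes of cholesterol synthesis and uptake were lower with GS. Of 18 measured, 7 were higher with 2DG (38.9% against 19.8% of all genes) and 1, PMVK, with GS (5.56% against 13.7%). By limma, 3 fell with 2DG and 9 fell with GS, where 3.37% and 5.1% of all genes did. The difference between stresses was called for none in either fit. SQLE, the squalene epoxidase, had a signal of 495 and 425 with GS and 695, 739 and 1110 with 2DG, from 856 and 966 and from 751, 970 and 1030. It fell with GS (-0.98 ± 0.28, SD, n = 2; adjusted p 0.0128 in limma), and the difference was 0.85 (SE 0.25; adjusted p 0.5). LSS, which closes the sterol rings, and SC5D and DHCR7, late steps, differed by 0.79, 0.71 and 0.65, with no overlap. HMGCS1, at the head of the pathway, had responses of -0.09 to GS 1 and -1.94 to GS 2, on both sides of the 2DG values. The response was lower on GS 2 than on GS 1 for 16 of 18 genes: without GS 1 the count higher with 2DG was 15. With treated arrays compared without own controls it was 4. Without GS 2 the count higher with GS was 4.

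Most ER chaperones, the classic response to both treatments, rose with both. Of 36 measured, 26 rose with 2DG and 23 with GS by limma, 23 of them with both, with medians of 1.13 and 1.02. Over all genes 4.9% and 4.36% rose. HSPA5, the ER HSP70 known as GRP78, had a signal of 10300, 9640 and 8890 with 2DG and 9890 and 9100 with GS, from 3360 to 4240 in the controls. The treated arrays overlapped. Its difference was -0.10 (SE 0.20; adjusted p 0.944 in limma), and a difference that misses the threshold does not show that the responses were equal. Its other, dimmer probe set gave -1.57, higher with GS without overlap. CRELD2, an ER disulphide isomerase, rose with both and had no overlap: responses were 2.66 and 2.98 to GS and 2.22, 2.01 and 2.31 to 2DG. In all 4 genes were higher with 2DG (11.1% against 19.8% of all genes) and 7 with GS (19.4% against 13.7%). Without GS 2 the latter count was 18 and without 2DG 1 it was 11, and the former was 7 to 9 without 2DG 3, GS 1 or GS 2.

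ATF4 genes rose with both in 18 of 36, and the GS arrays differed widely from each other. By limma, 26 rose with 2DG and 22 with GS, where 4.9% and 4.36% of all genes did. The list's median response was 1.34, 1.41 and 1.13 on the 2DG arrays and 1.77 and 0.52 on GS 1 and GS 2. ASNS, asparagine synthetase, had 4970, 3820 and 3640 with 2DG from 544, 637 and 432, and 3870 and 4550 with GS from 565 and 1240. The treated arrays overlapped, and the low response of GS 2 went with the high control 6. SLC3A2, the heavy chain of amino acid transporters, had 3000, 3340 and 2280 with 2DG and 2190 and 1840 with GS, from 238 to 288 and from 271 and 396. DDIT3, the factor CHOP, had 762, 789 and 123 with 2DG and 1490 and 1120 with GS, and 2DG 3 was alone in lying close to its control of 65.4. Responses did not overlap for 4 genes higher with 2DG (11.1%) and 1 higher with GS (2.78%), both below the 19.8% and 13.7% of all genes. Without GS 1, where non-overlap was more common over all genes too, the count higher with 2DG was 27. The count higher with GS was 18 without GS 2, 2 without 2DG 2, 2DG 3 or GS 1, and 11 where treated arrays were compared without own controls.

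**Figure D4:**
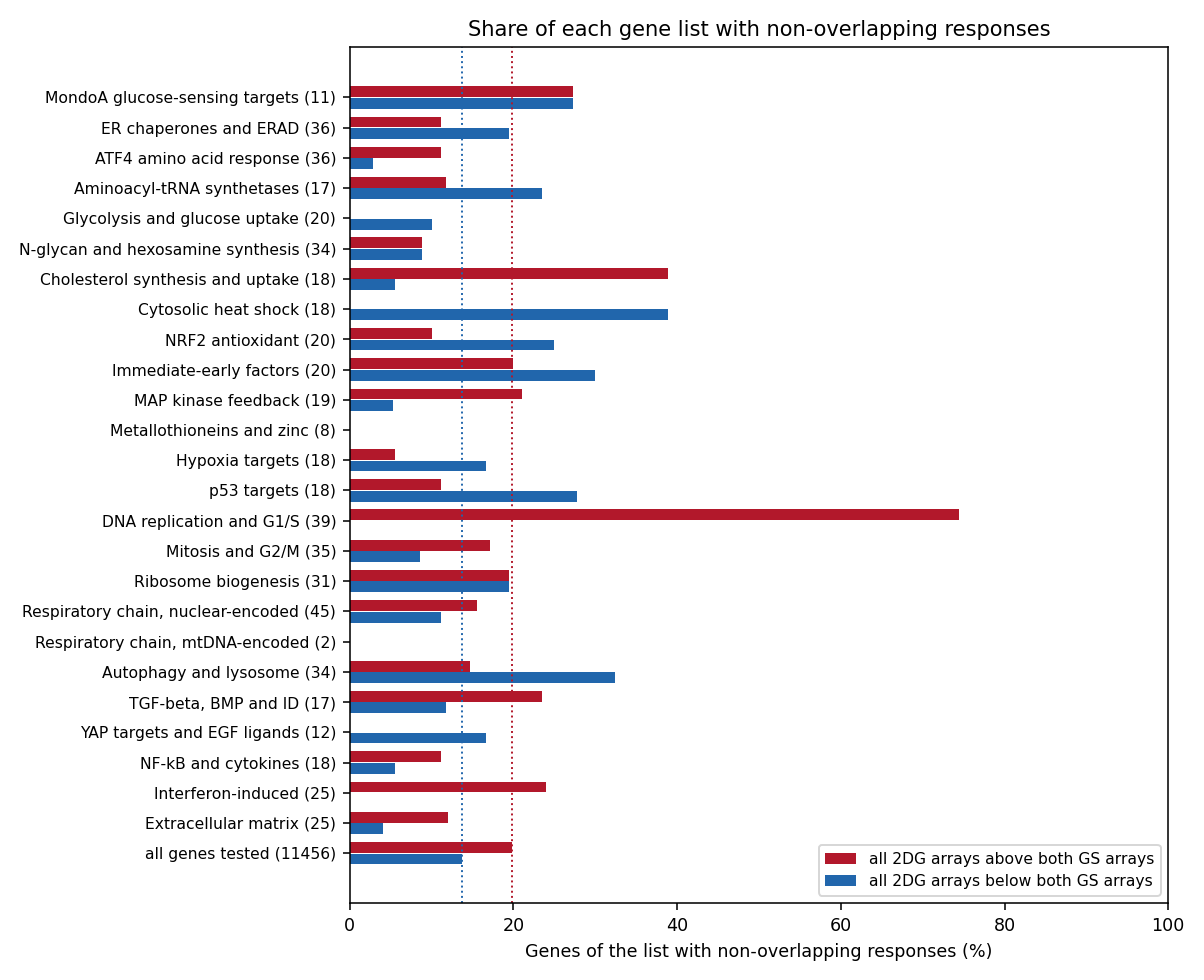
Share of the measured genes of each of 25 lists, and of all genes tested, whose responses to 2DG all lay above (red) or all below (blue) both responses to GS, with the number measured in brackets and the shares over all genes as dotted lines. DNA replication stands at 74.4% red with no blue, and cytosolic heat shock at 38.9% blue with no red.

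The other lists are given by their counts. Of 25 interferon-induced genes, 6 were higher with 2DG (24%, near the 19.8% of all genes) and none with GS: IFIH1, OAS3, OASL, IFIT3, ISG15 and ISG20, with differences of 0.17 to 1.20, that of ISG20 turning to -0.05 without own controls. IFIH1, a cytosolic sensor of double-stranded RNA, had responses of 0.81, 0.92 and 1.03 to 2DG and of -0.03 and -0.54 to GS, and an adjusted p of 0.654 in limma. Of 20 genes of glycolysis and glucose uptake none was higher with 2DG and 2 were with GS (10% against 13.7% of all genes). These were PDK1, the kinase that shuts pyruvate dehydrogenase, and PFKM, a phosphofructokinase. PDK1 rose with GS (responses 1.41 and 0.94; adjusted p 0.00742 in limma) and had 0.38, 0.72 and 0.02 with 2DG. Of 18 hypoxia targets, 1 was higher with 2DG (5.56% against 19.8% of all genes) and 3 with GS (16.7% against 13.7%). The 1 was P4HA2, a collagen prolyl hydroxylase, which rose with 2DG (responses 0.70, 1.32 and 0.87, adjusted p 0.0124 in limma). It had 0.30 and -0.13 with GS (adjusted p 0.867 in limma). Its difference was 0.88 (adjusted p 0.555 in limma), and -0.12 in a dimmer probe set. None of 8 metallothionein and zinc genes and neither of the 2 mtDNA-encoded transcripts measured had non-overlapping responses. Of 45 nuclear genes of the respiratory chain, 7 were higher with 2DG (15.6%) and 5 with GS (11.1%), near the 19.8% and 13.7% of all genes. SDHA, the flavoprotein of complex II, fell with GS (responses -0.92 and -0.94; adjusted p 0.00756 in limma) and had -0.50, -0.39 and -0.18 with 2DG.

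For the next lists, counts are given as higher with 2DG and then with GS, beside 19.8% and 13.7% of all genes. They were 0 and 2 of 12 YAP targets and EGF ligands (0% and 16.7%) and 2 and 5 of 18 p53 targets (11.1% and 27.8%). For 17 TGF-beta, BMP and ID genes they were 4 and 2 (23.5% and 11.8%), and for 25 extracellular matrix genes 3 and 1 (12% and 4%). Genes of N-glycan and hexosamine synthesis, 34 measured, had 3 and 3 (8.82% each). The counts were 2 and 4 of 17 aminoacyl-tRNA synthetases (11.8% and 23.5%) and 6 and 6 of 31 ribosome biogenesis genes (19.4% each). They were 4 and 1 of 19 MAP kinase feedback genes (21.1% and 5.26%) and 2 and 1 of 18 NF-kB and cytokine genes (11.1% and 5.56%). LATS2, a kinase of the Hippo pathway, had no overlap and was higher with GS. Its signal was 1280 and 443 with GS from 419 and 304, and 533, 358 and 256 with 2DG from 538, 380 and 299. It rose with GS (adjusted p 0.0208 in limma), and differed by -1.17 (adjusted p 0.472). GADD45B, a stress-induced growth arrest gene, had responses of 2.23 and 0.46 to GS and of -0.88, 0.04 and -0.28 to 2DG (difference adjusted p 0.648 in limma). SMAD3, the TGF-beta signal carrier, fell with GS (responses -1.02 and -1.52; adjusted p 0.00834) and had -0.88, -0.59 and -0.06 with 2DG. LAMB1, a laminin chain, rose with 2DG (responses 0.71, 0.64 and 0.49; adjusted p 0.0206 in limma) and had 0.08 and 0.25 with GS.

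The 15 genes with the widest gap in each direction, at a mean signal of 45.5 or more, are described here. They were chosen by the gap on these same arrays. Counts of rises and falls among them follow in part from that choice. Higher with 2DG, after TXNIP, were TNS1, SEMA3A, LINC00324, AIM2, MECOM, NR2F1, ETV1, PLK4, CHST2, SLC12A4, NEFL, TCF19, LOC105379499 and MCM10, with differences of 1.15 to 3.77. In 9 of the 15 the GS response fell by limma, and in 3 the 2DG response rose: TXNIP, SEMA3A and LINC00324. LINC00324, a long non-coding RNA, had a signal of 122, 210 and 217 with 2DG from 23.6, 12.6 and 5.45, and 48.2 and 64.5 with GS from 24 and 31.1. PLK4, the kinase of centriole duplication, had 156 and 127 with GS and 317, 374 and 317 with 2DG, from 381 to 448. NEFL, a neurofilament chain, had 150 and 134 with GS and 455, 491 and 342 with 2DG, from 487 and 325 and from 469, 544 and 335. In these last 2 the 2DG arrays stayed near their controls and the GS arrays were lower. TNS1, an adhesion protein, had 34.1 and 41.2 with GS, 118, 186 and 143 with 2DG and 87.6 to 97.8 in the 5 controls, and 1 of its 4 probe sets gave a difference of the other sign.

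Higher with GS, after HSPA6, HMOX1, ZFAND2A, DPH5-DT, NFKBIZ, SNAPC1 and DNAJB1, were PECR, UBAC2-AS1, ADAM15, DLX2, OCA2, ST3GAL3, REPS2 and CCDC18-AS1. In 10 of the 15 the GS response rose by limma, and in none did the 2DG response rise, which the choice by gap favours too. Of the 8 with several probe sets 5 gave the same sign in all: the others were PECR, whose second gave 0.01, ADAM15, whose second gave 0.60, and ST3GAL3, where a second of like brightness gave 0.85 against -1.83. UBAC2-AS1, an antisense transcript, fell with 2DG: its signal was 53.5, 39.1 and 23.8 from 116, 95.2 and 70, and 102 and 92.1 with GS from 85.4 and 84 (adjusted p 0.0272 with 2DG and 0.793 with GS in limma). ADAM15, a metalloprotease, shows how much some of these rest on the controls. It had 68.1 and 183 with GS from 28.7 and 79.7, and 97.2, 125 and 158 with 2DG from 112, 202 and 163. The treated arrays of both stresses overlapped, and compared without own controls the difference was 0.14 in place of -1.43.

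**Figure D5:**
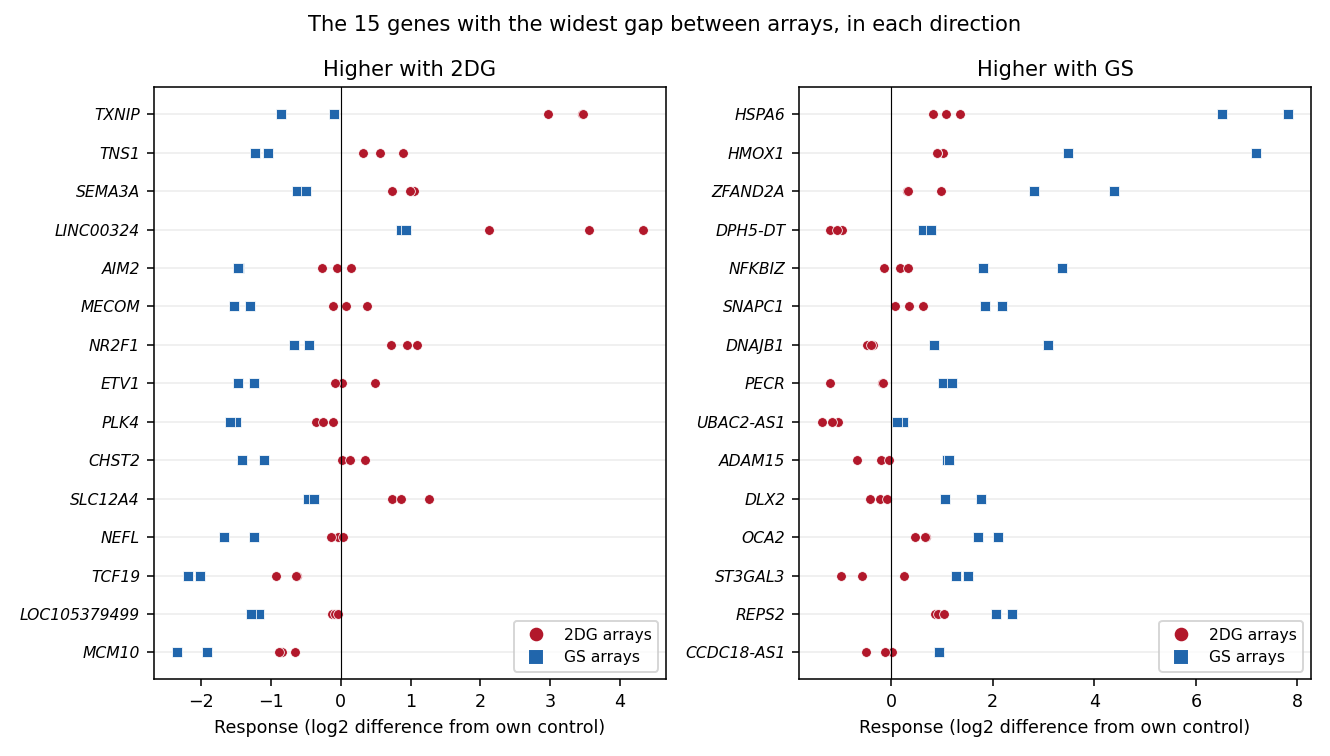
Log2 responses of the 15 genes with the widest gap in each direction, ordered by gap, in the 3 2DG arrays (red circles) and the 2 GS arrays (blue squares). In the left panel most squares lie below 0 with circles near or above it, TXNIP, SEMA3A, SLC12A4, NR2F1 and TNS1 lie above 0 with 2DG and below it with GS, and in the right panel both squares of HSPA6, HMOX1 and ZFAND2A lie at 2.82 or more.

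The same genes were read in treated HT-1080 arrays outside the comparison, where 2DG and GS were each combined with versipelostatin (VST) or with the respiratory chain inhibitors rotenone (Rot) or antimycin A (AA), 1 array a condition, and the differences were not tested. With VST, the 2DG array was above the GS array for 65.5% of the 2263 genes higher with 2DG and 45.4% of the 1572 higher with GS, against 56.6% of all genes. With Rot these shares were 51.3%, 49% and 50.6%, or 50.6%, 52.4% and 50.8% against the GS array with floating cells, and with AA, where the GS array came from the supernatant with floating cells, 46.8%, 54.6% and 49.2%. In HT-1080 cells without mtDNA (rho0), each set against its own control, they were 51.4%, 40% and 46.1%, again with floating cells in the GS sample.

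Single genes behaved differently from that average. TXNIP was 197 with 2DG and 24.9 with GS under VST, 173 and 27 under Rot, and 70 and 19.6 under AA, always higher with 2DG. In rho0 cells its response was 0.72 to 2DG and 0.51 to GS. HSPA6 was 51.6 and 2230 under VST, 73.4 and 1520 under Rot, but 711 and 534 under AA, where both arrays were high. In rho0 cells HSPA6 had responses of 0.07 to 2DG and 3.82 to GS, and in HT-29, at 18, 18 and 14 h of GS, it had 6.86, 8.17 and 2.43. SNAPC1 was 1020 and 1900 under VST and 911 and 796 under Rot. For DNA replication genes the 2DG array was the higher in 15 of 39 under VST, 38.5% and so below the 56.6% of all genes. It was the higher in 19 under Rot (48.7% against 50.6%) and 27 under AA (69.2% against 49.2%). In rho0 cells the 2DG response was the higher in 19 (48.7% against 46.1%). Of the 18 heat shock genes it was the higher in 33.3% under VST, 50% under Rot, 72.2% under AA and 38.9% in rho0 cells. In HT-29, MCM10 had GS responses of -3.05, -1.87 and -0.95 and PCNA of -2.54, -1.38 and -0.48.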

How the data were processed

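Total RNA was labelled and hybridized to Affymetrix U133 Plus 2.0 arrays, 1 per sample. The authors deposited linear intensity values from MAS5, as the submitters' processing notes name it, and how they scaled them is not given in the sources used here. Of 54675 probe sets, the 41097 with a single gene symbol in the platform annotation were used, and 1801 with several and 11777 without one were not. A missing value on any array removed 232 probe sets. Each array was scaled to a 2% trimmed mean of 114, 5% of it (5.69) was added and log2 taken, which understates changes of dim genes. Probe sets reaching 45.5 (40% of the trimmed mean) on at least 2 arrays were kept (21480), and the brightest stood for its gene (11456 genes). The number of arrays limits the precision.

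limma 3.58.1 in R 4.3.3 was fitted to all 38 arrays with an intensity trend, a coefficient per treated group and each treated array blocked with its own control (5 residual degrees of freedom). Tests were two-sided, with Benjamini-Hochberg adjusted p under 0.05 over all genes. Alternatives were another offset, filter, scaling, summary of probe sets, variance model, block, reference or set of arrays, and each replicate left out. The block by replicate number was not used for the main test: deviations of same-numbered 2DG and GS arrays correlated at 0.027 and -0.0024, so the numbers do not pair them, whereas each treated array correlated with its own control at 0.26 to 0.46.

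Genes named were those past the threshold, the 15 with the widest gap in each direction at a mean signal of 45.5 or more, up to 4 non-overlapping members of each of 25 lists (or 2 with the largest difference), and 10 stress genes. Other list members are given as counts and ranges or as part of a described group, chosen after their values were seen. The comparison, its lists and these genes were chosen with earlier results of these data known, so counts over a list are a description. Promoter sequences are RefSeq's (GRCh38.p14). Detection calls and coordinates of probe sets were not used here.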

Additional observations from a re-analysis of the deposited data

Results flagged for a closer look

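Among 119 named genes, 5 had 1 of the 6 HT-1080 controls far from the others. The measure is the gap to the nearest other control divided by the whole range, read against Dixon's critical value for 6 values. Chance alone would mark about 1 in 20 groups.

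TNS1 had a ratio of 0.862, with 193 on control 3 against 87.6 to 97.8. Control 3 is the own control of none of the 5 treated arrays here. HEATR1, a ribosome assembly factor, had 0.747, with 787 on control 4, the control of 2DG 2, against 910 to 956.

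The other 3 were highest on control 6, the control of GS 2. ASNS had a ratio of 0.632 (1240 against 432 to 637), IER3 0.632 (2750 against 2040 to 2280) and SLC3A2 0.629 (396 against 238 to 288). Each of these 3 had its lowest response of the 5 arrays on GS 2, as other named genes did too. Without own controls the difference in ASNS was -0.03 in place of 0.62.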

How the results depend on the processing

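The counts of genes by the test depended on the arrays fitted and on the block, and the cause was not tested. Higher with 2DG was 1 gene in the main fit, 73 with the 10 arrays only, 54 with HT-1080 arrays with mtDNA only, 78 with a term for Pt, and 0 to 1 with an array left out. Higher with GS was 1 gene in the main fit and 29, 21 and 52 in those fits, 0 to 3 with an array left out, 2 with an offset of 20%, a filter on the mean of the 10 arrays or quantile normalization, and 0 with an offset of 1%, the deposited scaling or no intensity trend. TXNIP was called in 18 of the 21 alternatives and SNAPC1 in 10, being lost with each array left out, with an offset of 1%, the deposited scaling, no trend or no block, and without own controls. With no replicate block, 24 and 13 genes were called, and with the block by replicate number 39 and 25, although the numbers do not pair the samples. Of all genes called, 22 and 50 respectively were among the 102 of the 10-array fit.

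Genes past the threshold for 2DG numbered 504 with no intensity trend, 2748 with the 10 arrays and 2741 with HT-1080 arrays with mtDNA only, and 84 to 667 with an array left out. For GS they numbered 449, 2824, 2780 and 20 to 716. Non-overlapping genes numbered 2807 to 4028 higher with 2DG and 2049 to 3018 higher with GS with an array left out. With none left out they numbered 2263 and 1572, so list counts with an array left out start from a higher share of all genes.

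For the lists, ranges with an array left out were 29 to 34 and 0 to 1 for DNA replication (higher with 2DG, then with GS), 7 to 17 and 3 to 8 for mitosis, 0 to 6 and 7 to 14 for heat shock, 5 to 9 and 11 to 16 for autophagy, 7 to 15 and 1 to 4 for cholesterol, 4 to 9 and 8 to 18 for ER chaperones, and 5 to 27 and 1 to 18 for ATF4. With the mean of 6 controls as reference, or without controls, which is the same contrast, 1 replication gene was higher with GS, 9 autophagy genes with 2DG, 4 cholesterol genes with 2DG and 0 with GS, and 11 ATF4 genes with GS. ER chaperones higher with 2DG numbered 2 with quantile normalization or the mean of all probe sets, and ATF4 genes higher with GS 3 with an offset of 20%.

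Of 2492 values of named genes under an alternative, 2326 kept their side and direction, 119 passed the threshold newly, 14 lost it and 33 turned. Without own controls or block, ADAM15 turned to 0.139, PFKFB4 to 0.0479, ARRDC2 to -0.0135, ATP6 to -0.0478, ISG20 to -0.0458, MMP2 to 0.248, HSPA5 to 0.0152 and ASNS to -0.0319. ALG13 turned to -0.105 with the mean of probe sets. With the block by number or without 2DG 3, COX1 turned to -0.0137 and DDIT3 to 0.0327. Without GS 1, HSPA5 turned to 0.0606, DDIT3 to 0.156, ATF3 to 0.783 and TRIB3 to 0.343. With any 1 array left out COX1 ran from -0.0137 to 0.188, and the lowest values, all without GS 2, were -0.252 for HSPA5, -1.98 for DDIT3, -2.77 for ATF3 and -0.854 for TRIB3. Signals below 45.5, such as those of ARRDC4 and HSPA6 without stress, give their differences little precision.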
